A study of Arabidopsis thaliana with 6 samples.

Results

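Of the 33602 genes in the count table, 125 had a level in each prmt5 mutant library at least 3 times that in any wild type library. The level is CPM, the reads of a gene per 1000000 gene reads of the library. A mean of at least 2 CPM in the mutant was also required, which 18531 genes met, so the 125 genes were 0.675% of these. The same rule turned round found 33 genes. Because these CPM values chose the genes, each member's difference between the genotypes is given as a description, with no test. The mutant was labelled prmt5, with the allele not given in the labels, and the reference was the wild type, both in Col-0, the Columbia accession. Each genotype had 3 libraries of polyadenylated RNA from whole plants, grown on Murashige and Skoog medium for 15 days at 22 °C under continuous white light after stratification for 4 days at 4 °C. The labels do not say whether the replicates came from separate cultures.

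PRMT5 is a protein arginine methyltransferase that places symmetric dimethyl marks on arginines of its targets. Among these targets are Sm proteins of the spliceosome, the machine that removes introns, and histones. In Arabidopsis, loss of PRMT5 is known to leave many introns in the RNA, to delay flowering and to disturb the circadian clock. An intron is recognised at its 5′ end by pairing of the U1 RNA with the last exonic and first intronic bases, which most often read AG followed by GT.

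Gene totals were 33099525 to 40150358 reads in the mutant libraries and 29145068 to 59480457 in the wild type libraries. PRMT5 itself (AT4G31120) was read at 56.1, 60.7 and 55.6 CPM in the mutant libraries and at 36.0, 28.1 and 29.7 CPM in the wild type libraries, so its RNA level does not mark the lesion. Wild type replicate 1 stood apart, and results that rest on it are given beside its values below. The summed level of 4 leaf markers was 18114 to 19577 CPM in the mutant libraries and 25743 to 28664 CPM in the wild type libraries. For 10 root markers the sums were 957.4 to 1034 CPM in the mutant and 985.8 to 1440 CPM in the wild type. For 6 flower markers they were 2.04 to 3.66 CPM in the mutant and 5.80 to 7.63 CPM in the wild type. Called lower were 4 of 4 leaf, 2 of 10 root and 2 of 3 tested flower markers, and 0 were called higher (edgeR). Over all genes tested 15.9% were called lower. In whole plants, more cells of a type and more RNA per cell cannot be told apart, and the part of organ make-up in the levels below was not tested. No member was among the markers of leaf, root, flower or seed.

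The introns whose reads changed most among the members are shown first by their 5′ splice sites. The bases at these sites differed between introns that gained reads relative to their gene and introns that did not. Each sequence gives the last 3 exonic and the first 6 intronic bases on the strand of the gene, from TAIR10.1, with the first 2 intronic bases in capitals.
AT1G12730 intron 1: gccGTaccg
ZIFL2 intron 6: gtcGTgagg
AT3G05400 intron 11: acaGTaaga
ZIF1 intron 2: cttGTaaca
AT4G29100 intron 1: tttGTaact
AT1G61660 intron 10: tttGTaaac
HB2 intron 3: acaGTaacc
GPT2 intron 4: cagGTaaac
MGD3 intron 3: atgGTaaga
The first 7 of these sites have a base other than G just before the intron. The last pair, in GPT2 and MGD3, have G there.

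The members lay close to the threshold for the most part. In 78 of them the lowest mutant level was 3 to 4 times the highest wild type level, in 26 it was 4 to 5 times, in 16 it was 5 to 10 times and in 5 it was 10 times or more. The mutant mean was a median of 5.12 times the wild type mean, with a range of 3.27 to 144.7. The median level was 32.8 CPM in the mutant and 6 CPM in the wild type, against 21.9 CPM in the mutant and 20 CPM in the wild type for all genes with a mean mutant level of at least 2 CPM. Together the members took 1.03%, 1.29% and 1.24% of the gene reads in the mutant libraries and 0.242%, 0.192% and 0.190% in the wild type libraries. The members varied among replicates by a median coefficient of variation of 11.2% in the mutant and 13.8% in the wild type. Mutant replicate 1 was the lowest mutant library in 74 members, and wild type replicate 1 was the highest wild type library in 74.

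**Figure D1:**
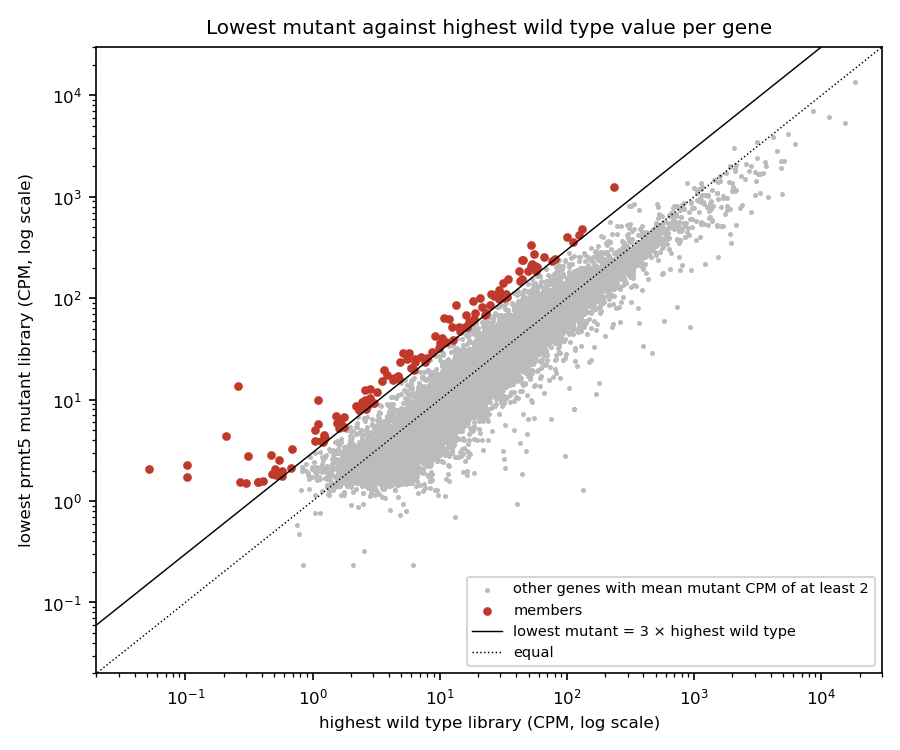
Each point is a gene with a mean mutant level of at least 2 CPM, with the highest of 3 wild type libraries on the horizontal axis and the lowest of 3 mutant libraries on the vertical axis, both in CPM on log scales. Red points are the 125 members, which lie above the solid line by the rule, and 78 of them have a ratio of 3 to 4; genes at 0 on either axis are not drawn.

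The edge of the rule ran through genes of similar behaviour. Just inside were AT5G52390 with a ratio of lowest mutant to highest wild type level of 3.02 and the nuclear factor Y subunit NF-YA9 with 3.02. So were AT2G17340, annotated as a pantothenate kinase, with 3.03, the haemoglobin HB2 with 3.03 and the coenzyme A synthesis gene COAB with 3.04. Just outside were AT1G08890 with 2.98, the cleavage and polyadenylation factor CPSF73-II with 2.97, the YABBY factor YAB3 with 2.96, AT5G65740 with 2.96 and the sodium/proton exchanger NHX8 with 2.95.

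In the gene fit over all 21949 genes with enough reads, 124 of the 125 members were called higher in the mutant (edgeR quasi-likelihood test), where 18.6% of all genes tested were called higher. The rule used the same contrast, so nothing is read from this count. The median log2 change was 2.28 over the members and -0.02 over all genes tested. The member not called was AT1G47405, described with its neighbour below.

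The members with the largest ratios included pseudogenes and remnants of transposons, loci that plants usually hold silent. The reference annotated 10 of the 125 members as pseudogenes, which is 8% of them, against 1.08% of the 18531 genes with a mean mutant level of at least 2 CPM. Among the 33 genes found by the rule turned round, 3 were pseudogenes, or 9.09%, so this share is not particular to raised genes. AT5G28335 on chromosome 5 was read at 15.7, 19.2 and 13.6 CPM in the mutant libraries and at 0.260, 0.168 and 0.137 CPM in the wild type libraries. All 3 mutant libraries lay far above the wild type libraries, with a ratio of lowest mutant to highest wild type level of 52.4. AT3G33084 on chromosome 3 had 2.05, 3.29 and 2.18 CPM in the mutant libraries, and 0.0519, 0 and 0 CPM in the wild type libraries. These loci resemble each other: 63.4% of the 50-base words of AT5G28335 also occur in AT3G33084, and 98.3% of those of AT3G33084 occur in at least 2 places of the genome. No source used here says how the authors' counting divided reads between such copies, so the separate levels of these loci are uncertain. Upstream of their starts they share an identical run of 96 bases (chr5:10313628-10313723 on the minus strand, and chr3:13675048-13675143 on the plus strand, TAIR10.1), shown in lower case because no motif is marked in it.
AT5G28335 and AT3G33084: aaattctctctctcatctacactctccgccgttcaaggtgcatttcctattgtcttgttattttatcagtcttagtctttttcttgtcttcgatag

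The remaining pseudogenes were mostly unique in the genome, with fewer than 10% of their words repeated except for AT4G08115 with 17.2%. AT4G08093 had 6.27, 4.38 and 8.82 CPM in the mutant libraries, and 0.208, 0.0336 and 0.0686 CPM in the wild type libraries. AT2G13431, annotated as a transposable element gene, had 1.73, 2.14 and 2.84 CPM in the mutant libraries, and 0.104, 0.0673 and 0 CPM in the wild type libraries. It overlaps AT2G13430, so its reads may belong to either. AT4G16870 had 338.8, 349.6 and 273.9 CPM in the mutant libraries, and 54.9, 40.0 and 41.7 CPM in the wild type libraries, so this locus was clearly read in both genotypes. SADHU3-2, of a family of non-coding retrotransposons that can be methylated and silenced, had 5.92, 5.93 and 5.86 CPM in the mutant libraries, and 1.56, 0.975 and 0.961 CPM in the wild type libraries. AT2G14245, AT2G15030 and AT4G08115 had mutant means of 2.73, 11.1 and 12.4 CPM, and AT1G47405 is described with its neighbour below. A list of 4 genes known for epigenetic control, none of them a member, held 3 tested genes, of which 0 were called higher (edgeR). The 2 called lower were QQS and ROS1. The 4 genes summed to 89.1 to 104.4 CPM in the wild type libraries, so the list was not silent there and does not check silenced loci.

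**Figure D2:**
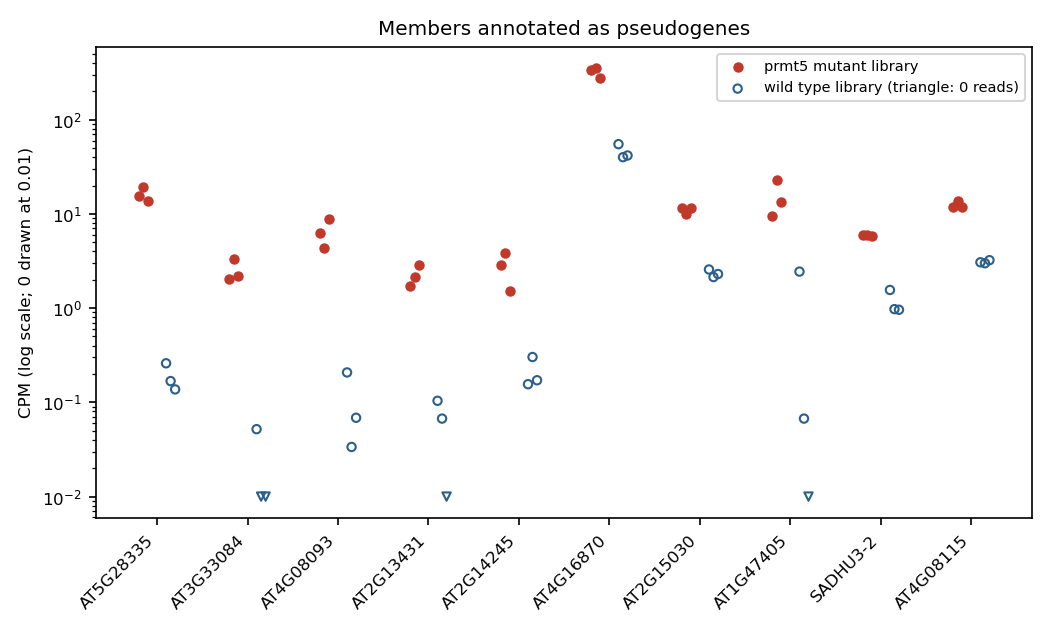
Level in every library of the 10 members annotated as pseudogenes, in CPM on a log scale, with mutant libraries in red to the left of wild type libraries in blue for each locus; triangles are libraries with 0 reads. AT5G28335 lies at 13.6 to 19.2 CPM in the mutant and at or below 0.260 CPM in the wild type, while AT4G16870 is above 39 CPM in all 6 libraries.

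Genes of the response to low phosphate formed a group of 7 members. Plants short of phosphate replace phospholipids by galactolipids and sulfolipids, secrete phosphatases and raise phosphate transporters. MGD3 (MGDC in the reference), a synthase of the galactolipid precursor, had 15.4, 16.1 and 10.03 CPM in the mutant libraries, and 1.04, 1.11 and 0.480 CPM in the wild type libraries. Its mean was 13.8 ± 3.30 CPM in the mutant and 0.876 ± 0.345 CPM in the wild type (SD, n = 3 each). MGD2, a second synthase of this kind, had 26.5, 29.1 and 30.5 CPM in the mutant libraries, and 6.13, 5.62 and 7.14 CPM in the wild type libraries. PLDP2, a phospholipase D of the zeta type that breaks down phospholipids, had 12.7, 13.1 and 10.3 CPM in the mutant libraries, and 2.70, 2.84 and 2.27 CPM in the wild type libraries. For all 3 lipid genes each mutant library lay above every wild type library, as the rule requires.

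The group also held phosphatases and a phosphate transporter. The pyrophosphatase PS2 had 28.3, 19.2 and 17.61 CPM in the mutant libraries, and 3.38, 2.32 and 3.84 CPM in the wild type libraries. The phosphoethanolamine and phosphocholine phosphatase PEPC1 had 15.5, 7.57 and 6.77 CPM in the mutant libraries, and 1.77, 0.538 and 0.755 CPM in the wild type libraries. The purple acid phosphatase PAP14 had 4.22, 1.69 and 1.57 CPM in the mutant libraries, and 0.0519, 0 and 0.412 CPM in the wild type libraries. The phosphate transporter PHT1;5 had 3.28, 1.84 and 2.42 CPM in the mutant libraries, and 0.364, 0.202 and 0.480 CPM in the wild type libraries. Mutant replicate 1 was the highest mutant library for each of these 4 genes.

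The pathway was looked at beyond the members through a list of 12 phosphate starvation genes, chosen with earlier results of these data known. MGD3, PS2 and PEPC1 are on it, and of the other 9 genes 7 rose in the mutant and 0 fell (edgeR quasi-likelihood test, adjusted over all genes), against 18.6% called higher and 15.9% called lower over all genes tested. Over all 12 listed genes, with the 3 members that were chosen on this contrast, the median log2 change was 1.24, against -0.02 over all genes tested. Over the other 9 genes the changes ran from 0.14 to 2.03. SPX1, a sensor of phosphate status, had 81.0, 79.2 and 81.7 CPM in the mutant libraries, and 32.1, 25.3 and 32.9 CPM in the wild type libraries, a log2 change of 1.36 ± 0.11 (SE). The non-coding RNA gene IPS1, which blocks the microRNA of phosphate starvation, rose by 2.01 ± 0.25 on the log2 scale (SE), and the sulfolipid synthase SQD2 by 1.13 ± 0.10 (SE). The phosphate transporter PHT1;4 had a log2 change of 0.20 ± 0.24 (SE) and PHO1;H1, of the phosphate exporter family, 0.14 ± 0.13 (SE), and neither was called.

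The P1BS element, the site known for the phosphate regulator PHR1, was searched as GNATATNC on both strands in the 250 bases before each gene start. It was found at 12 of the 125 members, which is 9.6%, against 4.76% of 18389 genes with a mean mutant level of at least 2 CPM and a window on the genome. Among the 12 listed phosphate genes, 8 held it, and none of the 8 was a member: MGD3, PS2 and PEPC1 held no match. Of the 7 phosphate members, MGD2, PAP14 and PLDP2 held it and are shown with the match in capitals. The window of MGD3 held no match to these letters.
MGD2 (chr5:6896326-6896575, plus strand, TAIR10.1): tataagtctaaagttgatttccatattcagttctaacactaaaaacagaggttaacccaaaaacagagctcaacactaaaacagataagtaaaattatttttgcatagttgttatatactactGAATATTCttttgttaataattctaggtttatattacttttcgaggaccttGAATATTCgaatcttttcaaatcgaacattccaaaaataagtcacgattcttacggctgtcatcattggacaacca
PAP14 (chr2:19266447-19266696, minus strand, TAIR10.1): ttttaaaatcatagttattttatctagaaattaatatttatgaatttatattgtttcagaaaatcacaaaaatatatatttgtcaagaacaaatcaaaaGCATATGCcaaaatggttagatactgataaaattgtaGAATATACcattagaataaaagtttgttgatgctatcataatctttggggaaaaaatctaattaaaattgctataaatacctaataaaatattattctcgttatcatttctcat
PLDP2 (chr3:1634950-1635199, plus strand, TAIR10.1): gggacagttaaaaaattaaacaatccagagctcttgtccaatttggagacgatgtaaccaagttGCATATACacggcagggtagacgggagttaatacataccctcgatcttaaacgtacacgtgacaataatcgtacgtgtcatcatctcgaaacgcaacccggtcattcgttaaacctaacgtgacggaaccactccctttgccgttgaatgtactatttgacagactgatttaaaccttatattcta
MGD2 and PAP14 each hold the letters at 2 places. The other members with a match were PRP40B, AT1G12030, DIP2, GPT2, AT1G23110, AT2G35390, AT1G26190, NUDT24 and AT1G08310, which are not of the phosphate group. These are matches of letters, and binding at them was not measured.

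**Figure D3:**
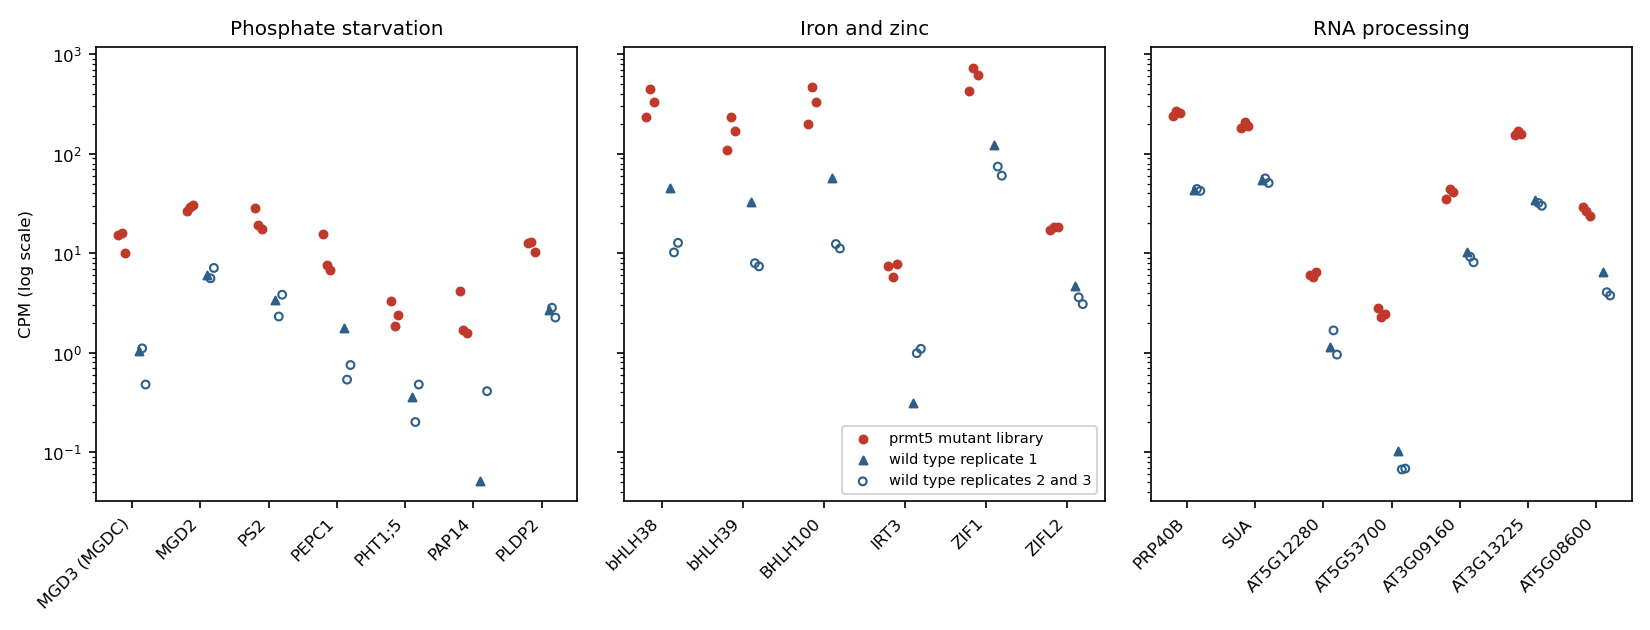
Level in every library of members known for phosphate starvation, for iron and zinc, and for RNA processing, in CPM on a log scale, with mutant libraries in red to the left of wild type libraries in blue; wild type replicate 1 is the filled triangle. PAP14 had 0 reads in wild type replicate 2, which is not drawn. Wild type replicate 1 lies between the other wild type libraries and the mutant for bHLH38, bHLH39 and BHLH100, and beside the other wild type libraries for PRP40B and SUA.

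For known roles in iron and zinc supply 6 members were grouped, and the grouping may not be complete. bHLH38, bHLH39 and BHLH100 are related transcription factors that are switched on in iron shortage and act with the factor FIT on iron uptake genes. bHLH38 had 236.2, 453.9 and 336.0 CPM in the mutant libraries, and 45.3, 10.2 and 12.8 CPM in the wild type libraries. bHLH39, which lies beside bHLH38 on chromosome 3, had 109.1, 233.7 and 168.7 CPM in the mutant libraries, and 33.0, 7.97 and 7.41 CPM in the wild type libraries. BHLH100 had 201.2, 468.3 and 331.8 CPM in the mutant libraries, and 57.7, 12.4 and 11.2 CPM in the wild type libraries. In all 3, wild type replicate 1 lay several times above the other wild type libraries, and mutant replicate 2 was the highest library.

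The transporters of the group had wild type libraries closer to each other. ZIF1, a vacuolar transporter of the iron and zinc chelator nicotianamine, had 424.0, 736.2 and 623.0 CPM in the mutant libraries, and 123.8, 74.6 and 60.4 CPM in the wild type libraries. Its relative ZIFL2 had 17.1, 18.3 and 18.22 CPM in the mutant libraries, and 4.73, 3.62 and 3.09 CPM in the wild type libraries. IRT3, a zinc and iron transporter, had 7.39, 5.73 and 7.73 CPM in the mutant libraries, and 0.312, 0.992 and 1.098 CPM in the wild type libraries. For IRT3, wild type replicate 1 was the lowest library, unlike for the 3 transcription factors.

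The iron pathway was also looked at through a list of 11 iron deficiency genes, of which bHLH38, bHLH39 and BHLH100 are members. This list too was chosen with earlier results of these data known. Of the other 8 genes, 7 rose in the mutant and 1 fell (edgeR quasi-likelihood test), against 18.6% called higher and 15.9% called lower over all genes tested. BTS, an E3 ligase that holds the iron response in check, had 510.5, 1121 and 686.6 CPM in the mutant libraries, and 246.0, 144.7 and 121.2 CPM in the wild type libraries, a log2 change of 2.12 ± 0.37 (SE). The root ferric reductase FRO2 had a log2 change of 0.97 ± 0.19 (SE) and the root iron transporter IRT1 0.63 ± 0.11 (SE). FIT, the master factor of root iron uptake, had 6.80, 7.67 and 8.46 CPM in the mutant libraries, and 12.5, 9.55 and 12.3 CPM in the wild type libraries, and fell by 0.65 ± 0.14 on the log2 scale (SE). The count of listed genes called higher, 10 with members included, was 4 without wild type replicate 2, 5 without wild type replicate 3 and 10 without wild type replicate 1.

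**Figure D4:**
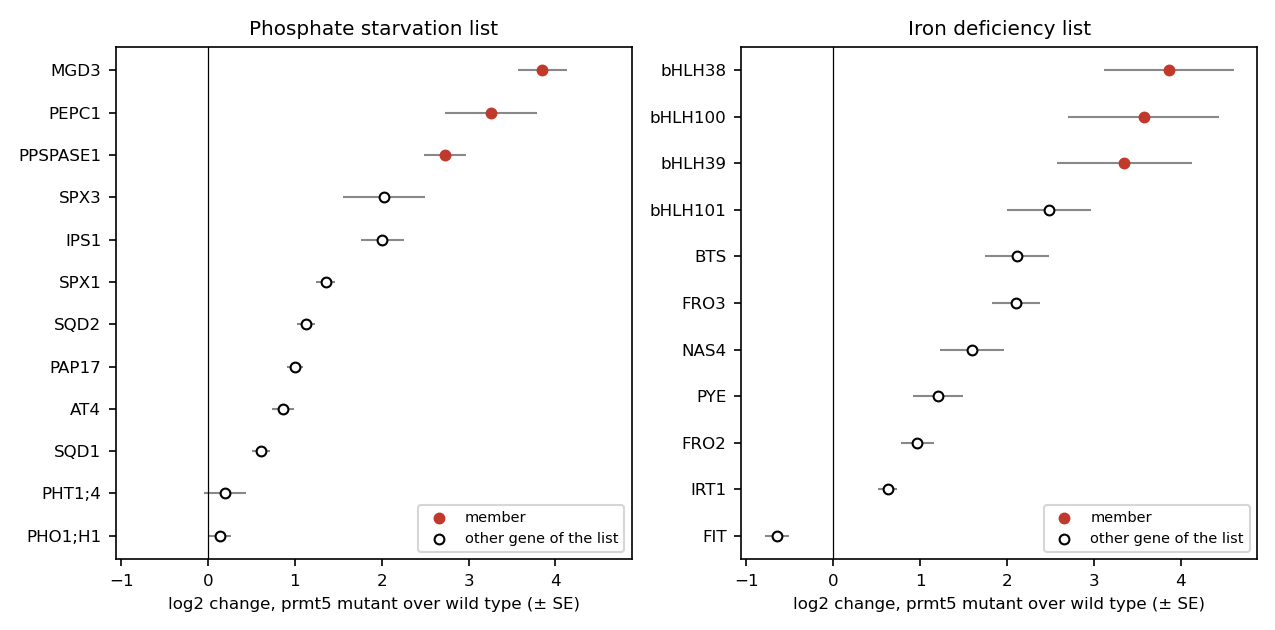
Log2 change, mutant over wild type, with its standard error for the genes of the phosphate starvation list (left) and the iron deficiency list (right); filled points are members, chosen on this contrast, and open points are other genes of the lists. PPSPASE1 is the gene called PS2 in the reference. SPX1 lies at 1.36, PHT1;4 and PHO1;H1 lie near 0, and FIT is the only listed iron gene below 0.

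In some further members, as in the iron factors, wild type replicate 1 was the highest wild type library by a wide margin. AT1G13609, a defensin-like gene, had 1253, 2114 and 2099 CPM in the mutant libraries, and 235.6, 52.6 and 61.4 CPM in the wild type libraries. Per kilobase of exon it had the highest level of all members, 4103 CPM per kb in the mutant and 262.5 CPM per kb in the wild type. GPT2, a plastid glucose-6-phosphate translocator that rises with sugar and light, had 15.4, 43.0 and 39.9 CPM in the mutant libraries, and 3.53, 0.639 and 0.755 CPM in the wild type libraries. On chromosome 1, AT1G47395 had 184.0, 299.8 and 246.1 CPM in the mutant libraries, and 49.8, 11.9 and 12.6 CPM in the wild type libraries. AT1G47405, annotated as a pseudogene 6270 bases further on, had 9.44, 23.04 and 13.3 CPM in the mutant libraries, and 2.44, 0.0673 and 0 CPM in the wild type libraries. AT1G47400, which lies between them, was no member, with 107.1, 188.0 and 146.9 CPM in the mutant libraries, and 40.3, 11.2 and 9.61 CPM in the wild type libraries.

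Wild type replicate 1 was at least 2 times as high as both other wild type libraries in 14 members, or 11.2%. This held for 102 of the 18531 genes with a mean mutant level of at least 2 CPM, or 0.550%. A wild type mean under 1 CPM was found in 20.8% of the members and 0.41% of these genes. The shares are thus not like for like in depth. The 14 included bHLH38, bHLH39, BHLH100, AT1G13609, GPT2, AT1G47395, AT1G47405, PEPC1, AT1G12030, PHE1, AT3G33084 and AT4G08093. For the 3 iron factors, mutant replicate 1 was also the lowest mutant library, so the genotypes approached each other in the libraries numbered 1. Without wild type replicate 1 the rule found 209 genes, including all 125 members. Coverage along genes moved with the libraries as well. With exons cut into 3 equal parts, the median log2 ratio of read density in the 3′ part to that in the 5′ part was 0.71, 0.78 and 1.28 in the mutant libraries and 1.67, 1.21 and 1.29 in the wild type libraries, and its part in the levels was not tested beyond the covariate given under the processing alternatives.

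Among members grouped for RNA processing, PRP40B, SUA and AT3G13225 had closer replicates than bHLH38, bHLH39 and BHLH100. PRP40B, whose yeast relative is a U1 snRNP protein that bridges the ends of an intron, had 238.7, 267.5 and 257.4 CPM in the mutant libraries, and 43.0, 44.4 and 42.5 CPM in the wild type libraries. Its mean was 254.5 ± 14.6 CPM in the mutant and 43.3 ± 0.971 CPM in the wild type (SD, n = 3 each). SUA, a splicing factor found as a suppressor of an abi3 allele, had 183.7, 208.8 and 189.8 CPM in the mutant libraries, and 54.1, 56.8 and 51.0 CPM in the wild type libraries. The WW domain gene AT3G13225 had 153.2, 168.7 and 157.3 CPM in the mutant libraries, and 34.6, 32.1 and 30.1 CPM in the wild type libraries. In these 3 genes the replicates of each genotype lay close together.

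Less-read genes with RNA-binding domains showed the same separation. AT5G53700, with an RRM domain, had 2.81, 2.29 and 2.48 CPM in the mutant libraries, and 0.104, 0.0673 and 0.0686 CPM in the wild type libraries, which rest on few reads. AT3G09160, also with an RRM domain, had 35.5, 44.4 and 41.8 CPM in the mutant libraries, and 10.2, 9.25 and 8.13 CPM in the wild type libraries, and its neighbour AT3G09162 had 16.1, 20.8 and 18.8 CPM in the mutant libraries, and 4.78, 4.29 and 4.36 CPM in the wild type libraries. The SWAP/SURP domain gene AT5G12280 had 6.04, 5.78 and 6.47 CPM in the mutant libraries, and 1.14, 1.68 and 0.961 CPM in the wild type libraries. AT5G08600, of the U3 ribonucleoprotein family that acts in ribosomal RNA processing, had means of 26.5 ± 2.83 CPM in the mutant and 4.76 ± 1.46 CPM in the wild type (SD, n = 3 each).

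Regulators of development and signalling made up another part of the members. TGA9, a bZIP factor that acts in anther development, had 71.5, 63.4 and 75.4 CPM in the mutant libraries, and 8.36, 9.16 and 10.8 CPM in the wild type libraries. LUH, a co-repressor related to LEUNIG, had 402.9, 460.7 and 431.7 CPM in the mutant libraries, and 93.0, 99.0 and 100.1 CPM in the wild type libraries. SDG25, a histone methyltransferase gene that acts on the flowering repressor FLC, had 97.03, 103.9 and 84.9 CPM in the mutant libraries, and 22.8, 24.8 and 22.5 CPM in the wild type libraries. The MADS-box gene AGL19, a promoter of flowering, had 7.68, 7.82 and 6.28 CPM in the mutant libraries, and 1.298, 1.28 and 1.61 CPM in the wild type libraries. Each of these 4 genes had mutant libraries well above all wild type libraries.

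Genes otherwise known from seeds were read at low levels. PHE1, an imprinted MADS-box gene of the endosperm, had 3.64, 4.88 and 2.78 CPM in the mutant libraries, and 0.312, 0.0336 and 0 CPM in the wild type libraries. FUS3, a B3-domain regulator of seed maturation, had 3.25, 3.26 and 4.08 CPM in the mutant libraries, and 0.416, 0.639 and 0.686 CPM in the wild type libraries. The storage protein and oleosin genes used as seed markers were nearly absent, with summed levels of 0.121 to 0.674 CPM in the mutant libraries and 0.441 to 0.723 CPM in the wild type libraries for 9 genes, so 0 of them were tested.

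The basic helix-loop-helix factors PIF7, AT4G29100 and AT1G61660 had very even values. PIF7, a factor of the shade response, had 99.1, 102.0 and 110.9 CPM in the mutant libraries, and 26.1, 29.2 and 26.6 CPM in the wild type libraries. AT4G29100 had 100.4, 100.4 and 100.2 CPM in the mutant libraries, and 31.7, 32.2 and 28.3 CPM in the wild type libraries. AT1G61660 had 117.1, 102.1 and 112.8 CPM in the mutant libraries, and 33.5, 30.8 and 31.6 CPM in the wild type libraries.

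Protein kinases made up 5 members. AT2G25760 had 337.0, 389.8 and 390.2 CPM in the mutant libraries, and 51.9, 51.0 and 50.9 CPM in the wild type libraries. AT2G25740, a gene with a LON protease domain that lies 862 bases from it, had 93.6, 109.2 and 105.2 CPM in the mutant libraries, and 17.7, 16.7 and 18.3 CPM in the wild type libraries. These neighbours lie on opposite strands with their ends facing each other, and they do not overlap in the table. AT1G09440, AT1G53440, AT2G25220 and CIPK17, a kinase of calcium signalling, had mutant means of 58.2, 206.7, 28.7 and 24.2 CPM. AT1G53440 overlaps AT1G53450, and its value is uncertain where the reads fall on the shared stretch.

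Metabolic members included 3 genes annotated for coenzyme A synthesis, a grouping made after the values were seen. AT2G17320 and AT2G17340 lie 5463 bases apart on chromosome 2. Both are annotated as pantothenate kinases, the enzymes that start this synthesis, but whether they have this activity was not tested. AT2G17320 had 116.7, 115.5 and 125.2 CPM in the mutant libraries, and 29.3, 22.3 and 26.3 CPM in the wild type libraries. AT2G17340 had 243.2, 244.1 and 283.9 CPM in the mutant libraries, and 73.8, 77.0 and 80.3 CPM in the wild type libraries. COAB, which encodes the next enzyme of the pathway, had 68.8, 69.1 and 74.9 CPM in the mutant libraries, and 22.6, 19.4 and 19.6 CPM in the wild type libraries. AT2G17320 and AT2G17340 shared 32 words of 50 bases, about 1.33% of AT2G17320, so few reads could be assigned to the wrong copy. AT2G17330, between them, had 0, 0 and 2 reads in the mutant libraries and 8, 12 and 16 reads in the wild type libraries.

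Other well-read members were the cytochrome P450 CYP72A13, the organellar glycyl-tRNA ligase EDD1 and the plastid sigma factor SIGC. CYP72A13 had 504.9, 476.1 and 517.3 CPM in the mutant libraries, and 132.2, 116.8 and 112.5 CPM in the wild type libraries. EDD1 had 398.4, 395.1 and 356.4 CPM in the mutant libraries, and 110.9, 108.2 and 100.7 CPM in the wild type libraries. SIGC had 271.5, 255.3 and 271.0 CPM in the mutant libraries, and 66.3, 62.4 and 59.5 CPM in the wild type libraries. HB2, a haemoglobin, had 233.0, 257.4 and 301.0 CPM in the mutant libraries, and 76.9, 56.1 and 66.1 CPM in the wild type libraries. In all 4 genes the lowest mutant library was about 3 to 4 times the highest wild type library.

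The remaining members with large ratios were read at low to moderate levels. AT1G12730, for a subunit of the transamidase that attaches GPI anchors, had 91.8, 85.3 and 91.9 CPM in the mutant libraries, and 13.5, 8.91 and 8.03 CPM in the wild type libraries. The F-box associated gene AT4G22390 had 3.34, 2.84 and 3.26 CPM in the mutant libraries, and 0.260, 0.471 and 0.275 CPM in the wild type libraries. The TRAF-like gene AT3G44790 had 1.55, 2.77 and 2.93 CPM in the mutant libraries, and 0.208, 0.269 and 0.137 CPM in the wild type libraries. AT3G05400, of the major facilitator superfamily with sugar transporters, had 29.0, 36.9 and 36.4 CPM in the mutant libraries, and 4.67, 3.85 and 5.11 CPM in the wild type libraries. AT1G62420 and AT1G12030 both carry a DUF506 domain of unknown function. AT1G62420 had 19.8, 43.7 and 26.0 CPM in the mutant libraries, and 3.66, 2.14 and 0.961 CPM in the wild type libraries. AT1G12030 had 28.8, 61.3 and 42.3 CPM in the mutant libraries, and 5.69, 2.79 and 2.40 CPM in the wild type libraries. Mutant replicate 2 was the highest library for both DUF506 genes.

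Members annotated for the ubiquitin system, which marks proteins for breakdown, had at most 9.92 CPM in any wild type library. The ubiquitin-conjugating enzyme UBC37 had 25.03, 29.29 and 30.88 CPM in the mutant libraries, and 6.34, 4.57 and 6.45 CPM in the wild type libraries. AT2G29070, of the UFD1 family that handles ubiquitin-marked proteins, had 23.5, 27.6 and 26.7 CPM in the mutant libraries, and 7.69, 7.03 and 5.97 CPM in the wild type libraries. DIP2, annotated as an E3 ligase, had means of 2.87 ± 0.305 CPM in the mutant and 0.478 ± 0.0671 CPM in the wild type, and the ubiquitin hydrolase relative AT5G51530 had 2.39 ± 0.353 CPM in the mutant and 0.484 ± 0.0812 CPM in the wild type (SD, n = 3 each). The RING/U-box gene AT3G58720 had 42.0 ± 8.15 CPM in the mutant and 9.47 ± 0.506 CPM in the wild type (SD, n = 3 each), and it overlaps AT3G58710.

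Repeat proteins of the WD40 kind, which serve as platforms for protein complexes, ranged widely in level. AT2G47410 averaged 232.4 ± 19.9 CPM in the mutant and 49.1 ± 3.73 CPM in the wild type (SD, n = 3 each). AT1G19750 had 4.51, 5.88 and 5.35 CPM in the mutant libraries, and 1.22, 0.588 and 0.275 CPM in the wild type libraries. AT4G32990 had 2.93, 2.14 and 2.27 CPM in the mutant libraries, and 0.597, 0.673 and 0.652 CPM in the wild type libraries.

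A sulfate transporter, an antiporter and an actin-binding protein show members outside these groups. The sulfate transporter SULTR1;3 had 6.89, 9.74 and 7.92 CPM in the mutant libraries, and 1.53, 0.975 and 0.961 CPM in the wild type libraries. The potassium/proton antiporter KEA6 had 104.8, 137.2 and 133.3 CPM in the mutant libraries, and 21.0, 26.6 and 23.4 CPM in the wild type libraries. SCAB1, an actin-binding protein of guard cells, had 207.5, 212.2 and 231.2 CPM in the mutant libraries, and 52.1, 48.8 and 48.9 CPM in the wild type libraries. AT4G31150, of the endonuclease V family, had 52.1, 57.7 and 61.3 CPM in the mutant libraries, and 14.2, 12.6 and 10.8 CPM in the wild type libraries.

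Members that neighbour each other within 20000 bases made up 7 pairs. Besides the pairs named above these were AT1G08310 with TGA9, and IQD5 with AT3G22183, which lies wholly inside IQD5 on the other strand. AT1G08310, an alpha/beta hydrolase gene that overlaps AT1G08300 and AT1G08315, had 9.82, 8.94 and 9.06 CPM in the mutant libraries, and 2.08, 2.49 and 2.75 CPM in the wild type libraries. IQD5, a calmodulin-binding protein gene, had 186.0, 218.7 and 228.3 CPM in the mutant libraries, and 42.0, 36.5 and 39.9 CPM in the wild type libraries. AT3G22183 had 53.6, 60.3 and 68.8 CPM in the mutant libraries, and 16.4, 13.1 and 13.5 CPM in the wild type libraries. Reads of AT3G22183 and IQD5 cannot be told apart without strand. Beyond position, members had more introns than other genes: 63.2% had at least 5 introns in the table and 29.6% at least 10, against 45% and 17.8% of the genes with a mean mutant level of at least 2 CPM. Exonic length was much the same, with a median of 1606 bases in the members and 1588 in these genes. Chromosome 4 held 7.2% of the members, 15.1% of these genes and 6.06% of the 33 genes found by the rule turned round. Another gene overlapped 9.6% of the members, against 18.6% of the genes with a mean mutant level of at least 2 CPM.

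The rise ran along the whole transcript in most members. Of 107 members with at least 2 exon bins read, 102 had every bin higher in every mutant library than in any wild type library. Over their 1045 bins this held for 1040, or 99.5%, against 34.1% of 122461 bins of all genes. Spliced reads, which span a junction, were higher without overlap in 103 of 105 members that have introns and spliced reads. Lack of overlap is a lower bar than the rule's ratio of 3, which 10 of 25 bins met in XIJ and 18 of 18 in AT2G25760. These counts come from the libraries that chose the members and are a description of where the reads lie.

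Introns of the members were then compared with the read count of their own gene. Among 370 introns with enough reads, in 89 members, 105 were called higher relative to the gene in the mutant, which is 28.4%, against 26.7% of 34408 introns of all genes tested (edgeR quasi-likelihood test). Lower calls were made for 34 introns, or 9.19%, against 1.21%. The gene count stands in the denominator and is the count that chose the members, so nothing more is read from either share. At least 1 raised intron was found in 67 of the 89 members, which is 75.3%, against 49.2% of 12275 genes with tested introns. Members had on average 4.16 tested introns, against 2.80 over these genes, so shares per gene are not like for like. In 47 of these members it was a single intron, while EDD1 had 8, SUA had 5, and AT1G12730 and LUH had 4 each. Over the raised introns the median was 6.33 intron reads per 100 gene reads in the mutant and 1.15 in the wild type.

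Several introns were read in the mutant and not at all in the wild type. Intron 1 of AT1G12730 (chr1:4334847-4334953) had 152, 149 and 129 reads in the mutant libraries and 0 in each wild type library. Intron 6 of ZIFL2 (chr3:15656385-15656479) had 25, 57 and 40 reads in the mutant libraries and 0 in each wild type library. Intron 11 of AT3G05400, intron 4 of GPT2 and intron 3 of MGD3 likewise had 0 wild type reads, with 22 to 34, 16 to 33 and 17 to 35 reads in the mutant libraries. These introns had enough reads only through the mutant. At the mutant's share of gene reads, the 3 wild type libraries together would hold 57.5 reads of the AT1G12730 intron, 30.98 of the ZIFL2 intron, 12.3 of the AT3G05400 intron, 6.48 of the MGD3 intron and 4.44 of the GPT2 intron, so 0 reads say little for MGD3 and GPT2. The call for the GPT2 intron was lost in 5 of the 6 fits that left out 1 library, and that for the MGD3 intron without wild type replicate 2 (edgeR).

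Introns with more wild type reads showed the size of the change more firmly. Intron 2 of ZIF1 (chr5:4432837-4433088) had 1104, 2457 and 1661 reads in the mutant libraries and 10, 15 and 2 in the wild type libraries. Per 100 gene reads this was 7.63, 8.31 and 8.06 in the mutant and 0.210, 0.338 and 0.114 in the wild type. Intron 3 of HB2 (chr3:3277580-3277661) had 21.4, 22.2 and 22.0 reads per 100 gene reads in the mutant and 0.844, 1.83 and 1.45 in the wild type. Intron 1 of AT4G29100 had 12.5, 11.1 and 11.4 reads per 100 gene reads in the mutant and 0.0820, 0.679 and 0.605 in the wild type. Intron 10 of AT1G61660 had 6.08, 6.73 and 7.18 reads per 100 gene reads in the mutant and 0.387, 0.273 and 0.544 in the wild type. For all of these introns the genotypes did not overlap.

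**Figure D5:**
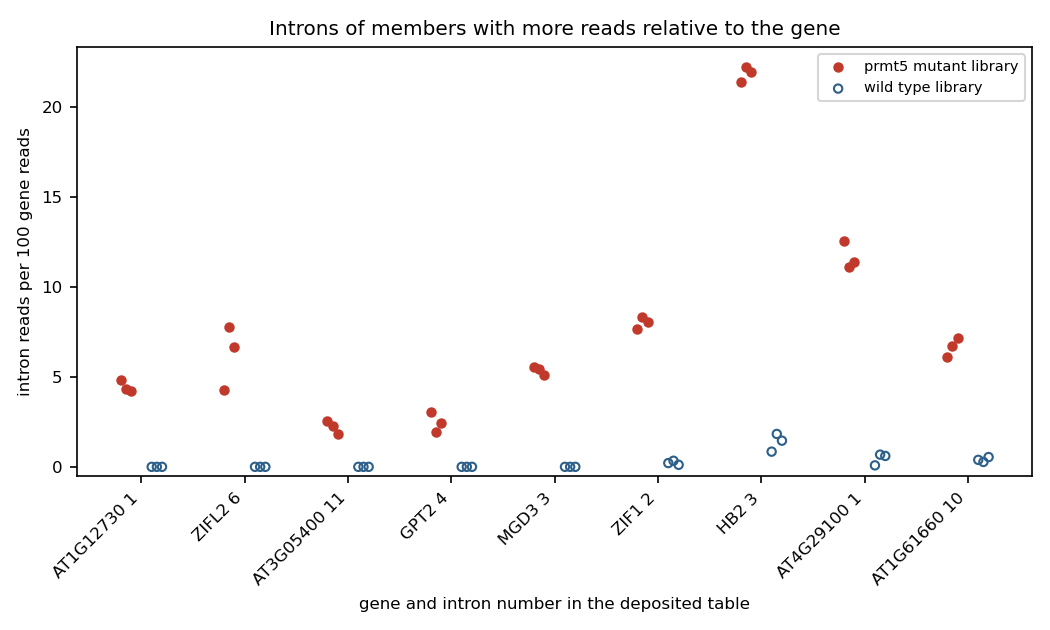
Intron reads per 100 gene reads in every library for 9 introns of members, with mutant libraries in red to the left of wild type libraries in blue; the number after each gene is its intron number. HB2 intron 3 reaches 21.4 to 22.2 in the mutant and 0.844 to 1.83 in the wild type, and 5 of the introns had 0 reads in all wild type libraries.

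Most lowered introns gained fewer reads than their genes. Of the 34 lowered introns, 32 had a higher mean level, as reads per 1000000 gene reads, in the mutant than in the wild type, with a median ratio of 1.75, and 16 did so without overlap. Among those with the largest drop relative to the gene, intron 3 of PIF7 was an exception, without a higher mean level in the mutant. It had 12, 33 and 33 reads in the mutant libraries and 27, 49 and 22 in the wild type libraries. Per 100 gene reads this was 0.355, 0.806 and 0.899 in the mutant and 2.68, 2.82 and 2.84 in the wild type. Intron 2 of TGA9 had 24, 16 and 25 reads in the mutant libraries and 9, 14 and 18 in the wild type libraries. Measured against library size in place of the gene count, the median log2 change of the members' introns was 2.57, against 0.60 over all introns tested.

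The rule did not use the bases of the 5′ splice site, but these sets of introns rest on the gene count that chose the members. To be raised, an intron of a member had to outrun the rise of its gene. Raised introns of members and of other genes thus met unlike bars. The bases differed between the sets as follows. The last exonic base was G in 37 of 104 raised introns of members with GT and AG ends, or 35.6%, in 30 of 34 lowered introns, or 88.2%, and in 184 of 224 introns of members that were not called, or 82.1%. In all other genes it was G in 64.3% of 8926 raised introns, 74.8% of 361 lowered introns and 81.9% of 23961 introns not called. Over all 118889 annotated introns with these ends it was G in 76.4%. G at the fifth intronic base was found in 28.8% of the members' raised introns and 44.6% of those not called, against 42.4% of raised introns and 47.7% of introns not called in other genes. Median intron length was 108 bases for raised introns and 102 bases for introns not called in the members. Introns are not independent replicates, and the difference between members and other genes in these shares was not tested.

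Splice site choice moved in 5 members. Of 344 junctions with enough reads, 10 had a share of their cluster, the junctions with a common start or end, that differed by at least 20 percentage points with no overlap, which is 2.91%, against 1.52% of 32283 junctions of all genes. In AT5G05310, of the ATP/ADP transporter family, a junction that skips an annotated exon (chr5:1573935-1574254) had 46 of 64, 50 of 103 and 44 of 89 reads at its acceptor in the mutant libraries, and 0 of 70, 0 of 94 and 0 of 43 in the wild type libraries. In the Rab GTPase gene RABG3B, a donor that is not annotated (chr1:8049796-8049980) took 58.1% ± 10.98 of the reads at its acceptor in the mutant and 6.78% ± 6.61 in the wild type (SD, n = 3 each). In AT1G12730 the annotated intron at chr1:4335294-4335437 took 23.3% ± 4.12 of the reads of its donor in the mutant and 80.4% ± 20.2 in the wild type (SD, n = 3 each), where the wild type libraries had only 14 to 23 reads. The phosphoribosyltransferase gene AT2G35390 and GLX2-1, a glyoxalase, made up the remaining switches, with the annotated intron at 53.1% ± 12.4 in the mutant and 95.6% ± 1.63 in the wild type, and at 47.8% ± 13.5 in the mutant and 89.5% ± 9.14 in the wild type (SD, n = 3 each).

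Other promoter motifs were searched in the same windows on both strands. The G-box CACGTG stood before 7.2% of the members and 9% of the genes with a mean mutant level of at least 2 CPM, the telo-box AAACCCTA before 6.4% and 5.9%, and the evening element AAAATATCT of clock-regulated genes before 5.6% and 2.4%. None of the 20 listed clock genes and 20 listed flowering genes was a member. Of the clock genes 9 were called higher and 4 lower, and of 19 flowering genes tested 3 were called higher and 6 lower (edgeR), where 18.6% of all genes tested were called higher and 15.9% lower. The lists for cold response, heat shock, salicylate defence, jasmonate and ethylene defence, anthocyanin and senescence held no member either, and their counts called higher were 7 of 11, 0 of 7, 1 of 13, 0 of 13, 7 of 12 and 2 of 11 tested, with 1, 2, 0, 6, 1 and 4 called lower. On the sugar list, GPT2 was a member, and of the other 7 genes 2 were called higher and 1 lower.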

How the data were processed

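The authors deposited unnormalized read counts of each library over genes, over bins of exons and introns, and over splice junctions, per the file headers. STAR and TAIR10 are named in the submitters' processing notes, while no source used here names the counting program or its use of strand. CPM was computed as count over the library's gene total, without further scaling. Genes and introns were tested with edgeR 4.0.16 (quasi-likelihood, robust, TMM, default expression filter; R 4.3.3) at a Benjamini-Hochberg adjusted p under 0.05. Introns needed 10 reads in 3 libraries and a gene mean count of 20, with the log gene count plus 1 as the offset. Junctions needed 10 reads in 3 libraries and 10 cluster reads in every library. Symbols, strands and sequences came from TAIR10.1: 32834 of 32835 matched genes overlapped the reference gene, and 98.7% of introns had GT and AG ends. No library pair of a genotype agreed within sampling noise. PCR copies are not marked, so reads are not all independent molecules.

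Members and lists were chosen with earlier results of these data known, and functional groups outside the lists were assembled after the values were seen. SULTR1;3, KEA6, SCAB1 and AT4G31150 were also named after their values were seen. Named by rule are the members with the 15 largest ratios, the 10 highest mutant means, those on a list, those at the threshold, neighbours, annotation families and the introns and junctions with the largest changes; PRMT5 is always named. Well-read introns of ZIF1, HB2, AT4G29100 and AT1G61660 were chosen after their values were seen.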

Additional observations from a re-analysis of the deposited data

How the results depend on the processing

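The 125 members became 115 with TMM-scaled CPM or with DESeq2 size factors, 143 with a mean of at least 1 CPM, 105 with at least 5 CPM, 405 at a ratio of 2 and 47 at a ratio of 4. With single libraries left out the rule found 130 to 209 genes, the most without wild type replicate 1. Members called higher in the gene fit, 124 of 125, numbered 118 to 124 under every alternative run, and their median log2 change kept its direction, at 2.26 to 2.31. The groups' replicate numbers do not pair the libraries: deviations from the group means correlated at -0.114, -0.050 and -0.017 for the same numbers, and at 0.103 for mutant replicate 1 with wild type replicate 2. With the replicate block, 119 members, 103 introns and 4 iron genes were called. Raised introns were 329 of 370 against library size in place of the gene count, which lets the gene level in, 99 of 231 with at least 20 reads, and 90 to 100 with single libraries left out. Switched junctions were 9 with at least 20 reads, 21 at 10 percentage points and 10 to 17 with single libraries left out, the most without mutant replicate 3. Listed iron genes called higher were 4 to 10 of 11 with single libraries left out, 7 with coverage along genes as a covariate and 10 with DESeq2. Listed phosphate genes called higher were 8 of 12 with that covariate and 10 under the other settings. The causes were not tested. Named members and introns kept their direction in all settings; 36 of their values were no longer called, most of them in bHLH38, bHLH39, BHLH100, GPT2 and AT1G47395 with a library left out or the block. GPT2 intron 4 was called in only 1 of the 6 fits that left out a library, and BHLH100 was not called with the coverage covariate or with no filter on low counts. PAP14 and PEPC1 were not called with the coverage covariate, PAP14 without wild type replicate 1, AT1G13609 without wild type replicate 3 and MGD3 intron 3 without wild type replicate 2. AT1G47405, not called otherwise, was called without wild type replicate 1. Depth limits the members below 1 CPM in the wild type, 26 of 125, whose folds rest on few reads.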
